A study of Homo sapiens with 18 samples.

Results

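The p38 mitogen-activated protein kinase module described here is a set of 10 genes, selected on the measured fall of MAP2K6, which encodes one of the kinases that switch p38 on, after poly(I:C) in these libraries. The members are the kinase kinases MAP2K3, MAP2K6 and MAP2K4, the p38 kinases MAPK11, MAPK13 and MAPK14, the downstream kinases MAPKAPK2 and MAPKAPK3, and the phosphatases DUSP1 and DUSP10. They were found by gene symbol among the 62754 genes of the count matrix. Each of the 10 was present, and each passed the filter on low counts, which left 15167 genes for testing. The set was thus chosen by the MAP2K6 counts at 0 h and 24 h, so the change of MAP2K6 after poly(I:C) is described without a test, and the question asked of the other 9 members is whether their transcripts moved with it. Differences of MAP2K6 between transfections rest on the same counts and are given without p-values. The members counted as called between transfections leave MAP2K6 out. Only counts of calls under altered processing still include it there.

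RNA was sequenced from EA.hy926, a human umbilical vein endothelial line made by fusion with the lung epithelial line A549. Before the first sampling all cells had been through a transfection and an overnight starvation in low serum. Mock cells received the transfection reagent alone. An siRNA without a target was used for siNT, and siELMO1 stands for a pool of siRNAs against ELMO1, which encodes an activator of the small GTPase RAC1, with siRNA at 10 nM. The 0 h samples were taken 48 h into the transfection, and the 24 h samples had then spent a day with poly(I:C), a synthetic double-stranded RNA that activates Toll-like receptor 3 (TLR3), at 1 μg/ml. No group was sampled at 24 h without poly(I:C), so the stimulus and the additional day in culture cannot be told apart in any comparison of 24 h with 0 h. Each of the 6 groups had 3 libraries, which the paper calls biological replicates, and p-values judge differences against the spread between them. Whether the libraries of a group came from separate transfections is not given in the sources used here.

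The p38 pathway is a relay of kinases. TLR3 and other receptors of stress and inflammation act through adaptors and MAP3 kinases on MKK3 and MKK6, the products of MAP2K3 and MAP2K6, which phosphorylate p38, while MKK4, the product of MAP2K4, acts mainly on JNK and also on p38. Active p38 phosphorylates MK2 and MK3, the products of MAPKAPK2 and MAPKAPK3, which stabilise cytokine transcripts, and dual-specificity phosphatases such as DUSP1 and DUSP10 switch p38 and JNK off. In endothelial cells the pathway is known for its part in adhesion molecule and chemokine expression and in cytoskeletal rearrangement. Transcript levels do not show phosphorylation, which is how the pathway is switched.

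The libraries held between 40.4 and 73.9 M estimated counts each. ELMO1 was at 0.299, 0.301 and 0.419 CPM (a library's counts scaled to a common total) in the siELMO1 libraries at 0 h, against 3.04, 2.99 and 3.03 CPM in Mock and 2.86, 2.66 and 3.32 CPM in siNT. CXCL10, an interferon-induced chemokine, was listed at 0 counts in the 9 libraries at 0 h and was between 6.76 and 40.9 CPM in the 9 libraries at 24 h. IFIT1, an interferon-induced antiviral gene, was between 4.55 and 8.64 CPM at 0 h and between 705 and 1190 CPM at 24 h, while CXCL8, an inflammatory chemokine, averaged 1152, 237 and 589 CPM at 24 h in Mock, siNT and siELMO1. Of 10 endothelial markers, 9 were between 3.36 and 980 CPM in every library and CLDN5 was at 0.210 CPM or less. Of the epithelial markers KRT7, KRT8 and KRT18 were between 189 and 1193 CPM, EPCAM, KRT19 and SFTPB were at 1.24 CPM or less, and CDH1 and NKX2-1 were listed at 0. Among the leukocyte markers CD3E was listed at 0, PTPRC and CD14 were at 0.497 CPM or less, and LYZ was between 1.58 and 7.52 CPM. Replicates 2 and 3 of siELMO1 at 0 h had 4.03 and 3.95% of their counts in mitochondrially encoded genes, against 2.42% or less in the other 16 libraries.

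MAP2K6 (ENSG00000108984.16) lies at chr17:69414697-69553865 on the plus strand of GRCh38, and the annotation places ENSG00000267653 on the opposite strand within it and ENSG00000278972 on the same strand. MAP2K3 (ENSG00000034152.20) is on the same chromosome at chr17:21284672-21315232, plus strand. DUSP10 (ENSG00000143507.18) is at chr1:221701424-221742089 and DUSP1 (ENSG00000120129.6) at chr5:172768096-172771195, both on the minus strand, with ENSG00000253736 opposite DUSP1. The start windows of these 4 genes are shown because MAP2K6 and MAP2K3 are the pair of dedicated p38 kinase kinases and DUSP1 and DUSP10 the pair of phosphatases whose levels are set against each other. Each window runs from 250 bases before to 50 bases after a RefSeq start site (GRCh38.p14), 5′ to 3′ along the gene, and that start equals the start of the transcript with the most counts. RefSeq has a further start window for MAP2K6, MAP2K3 and DUSP10, which is not shown. Capitals mark matches to 6 motifs on either strand, AP-1 (TGACTCA), CRE (TGACGTCA), ISRE (GAAA, any pair of bases, then GAAA), the kappaB motif, the TATA box, written TATAAA, and the CCAAT box. No match shown overlaps another.
MAP2K6, chr17:69414447-69414746, plus strand: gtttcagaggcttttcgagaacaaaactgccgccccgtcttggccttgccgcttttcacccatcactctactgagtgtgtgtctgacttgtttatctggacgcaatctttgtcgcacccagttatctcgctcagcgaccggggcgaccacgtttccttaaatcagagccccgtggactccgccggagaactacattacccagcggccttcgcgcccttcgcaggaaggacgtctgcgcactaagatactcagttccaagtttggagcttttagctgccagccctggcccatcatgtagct
MAP2K3, chr17:21284461-21284760, plus strand: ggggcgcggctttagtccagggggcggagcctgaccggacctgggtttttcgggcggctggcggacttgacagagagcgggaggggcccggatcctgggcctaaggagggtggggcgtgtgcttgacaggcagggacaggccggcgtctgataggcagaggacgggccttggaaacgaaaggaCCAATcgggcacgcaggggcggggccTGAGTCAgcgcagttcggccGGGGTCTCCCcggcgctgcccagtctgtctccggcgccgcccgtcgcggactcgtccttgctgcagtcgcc
DUSP1, chr5:172771146-172771445, minus strand: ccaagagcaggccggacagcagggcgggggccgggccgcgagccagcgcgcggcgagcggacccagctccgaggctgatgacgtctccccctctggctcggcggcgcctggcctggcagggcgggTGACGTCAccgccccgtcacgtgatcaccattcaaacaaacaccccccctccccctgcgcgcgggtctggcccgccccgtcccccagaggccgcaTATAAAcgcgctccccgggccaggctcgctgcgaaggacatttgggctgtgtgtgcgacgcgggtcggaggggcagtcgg
DUSP10, chr1:221742040-221742339, minus strand: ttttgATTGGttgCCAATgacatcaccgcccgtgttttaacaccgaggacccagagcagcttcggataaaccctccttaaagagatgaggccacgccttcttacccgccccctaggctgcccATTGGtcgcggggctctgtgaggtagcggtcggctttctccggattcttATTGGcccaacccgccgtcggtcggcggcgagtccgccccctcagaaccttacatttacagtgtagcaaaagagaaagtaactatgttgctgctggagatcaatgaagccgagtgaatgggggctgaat
The MAP2K6 window shown held no match to the 6 motifs. Its further window, with the start at 69502262, held 2 TATA matches, and that of MAP2K3 held 1 kappaB match. The rest refers to the windows shown. In MAP2K3 a CCAAT match began 67 bases, an AP-1 match 41 bases and a kappaB match 21 bases before the start. DUSP1 held a CRE match 125 bases and a TATA match 30 bases before its start, and DUSP10 held 4 CCAAT matches. Among 35116 RefSeq windows of this length, 4.95% held the AP-1 letters, 1.85% the CRE, 3.57% the ISRE, 5.91% the kappaB motif, 11.5% TATAAA and 34.6% CCAAT. RefSeq windows were matched for 9 of the 10 members, all but MAPKAPK2. A match is a description of letters, and no binding was measured.

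MAP2K6 was lower at 24 h than at 0 h in each transfection, with no overlap between libraries. Mock cells held 12.4, 11.5 and 12.6 CPM at 0 h and 0.914, 0.348 and 0.754 CPM at 24 h, or 810, 851 and 987 estimated counts against 48, 21 and 44. For siNT the values were 34.6, 32.9 and 28.4 CPM at 0 h and 5.10, 4.81 and 4.04 CPM at 24 h. siELMO1 cells had 13.1, 13.8 and 12.6 CPM at 0 h and 1.61, 2.16 and 2.78 CPM at 24 h. The mean level at 0 h was therefore 18.1-fold that at 24 h in Mock, 6.87-fold in siNT and 6.02-fold in siELMO1, and 5.52, 14.6 and 16.6% of the starting level was left. The fitted log2 fold changes were −4.19, −2.78 and −2.60. Without Mock 24 h replicate 1 or 2 the Mock value was −4.50 or −3.87, so that these few counts set its size but not its direction. In bulk RNA, fewer cells carrying a transcript and less of it per cell cannot be told apart.

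Ordered by mean CPM, MAP2K6 was highest in siNT at 0 h (32.0 ± 3.21 CPM, mean ± SD, n = 3), followed by siELMO1 at 0 h (13.1 ± 0.608) and Mock at 0 h (12.2 ± 0.589), then siNT at 24 h (4.65 ± 0.547), siELMO1 at 24 h (2.18 ± 0.586) and Mock at 24 h (0.672 ± 0.292). The libraries of the neighbours siELMO1 and Mock at 0 h overlapped, with a log2 difference of 0.11 ± 0.174. A single transcript, MAP2K6-206, 13405 bases long, took 99.1% of the MAP2K6 counts over all libraries, and between 86.3 and 100% in single libraries.

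**Figure D1:**
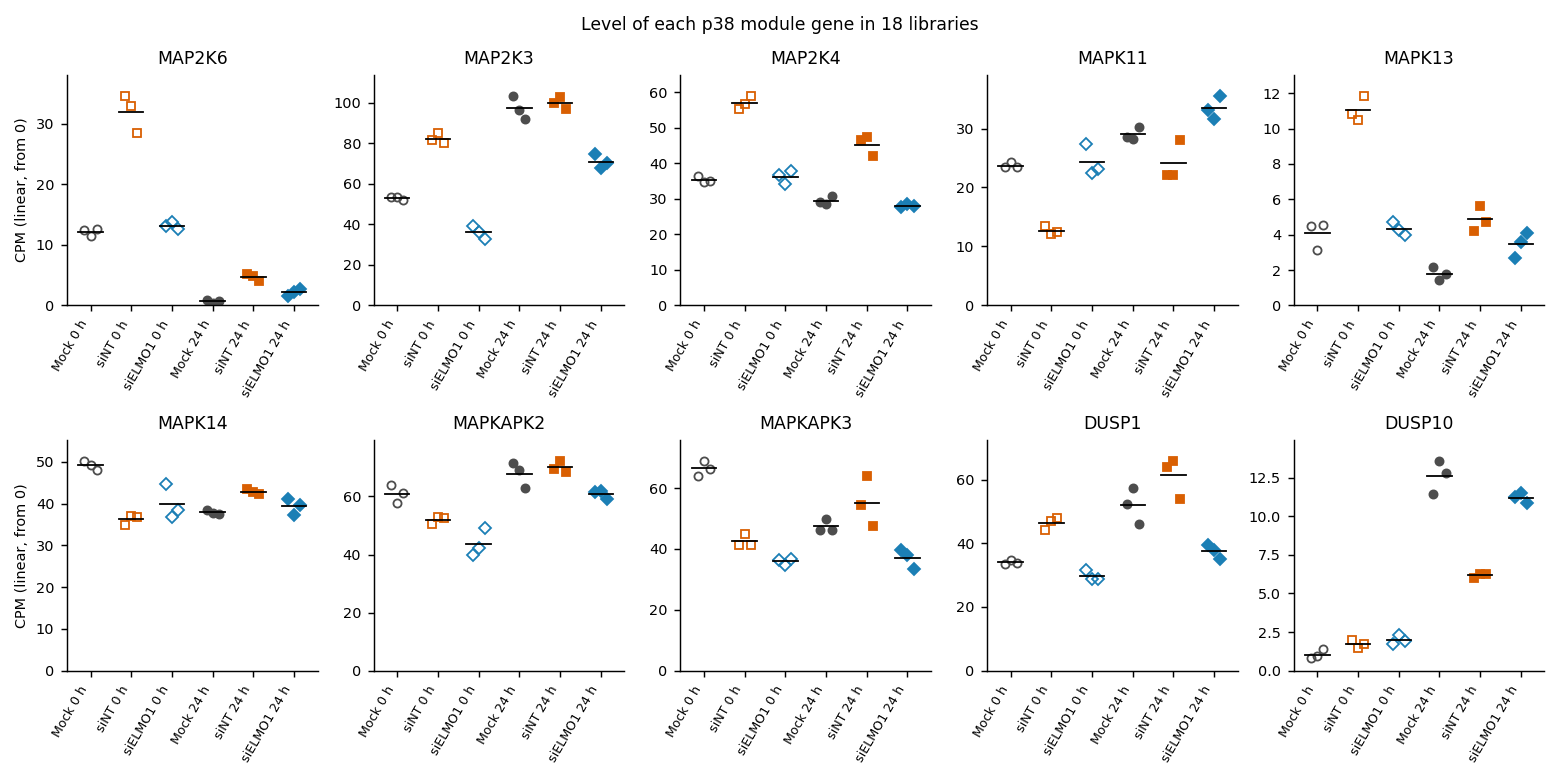
Transcript level of each of the 10 members in all 18 libraries, in CPM on a linear axis from 0. Each point is a library, open at 0 h and filled at 24 h, and each bar is the mean of 3. MAP2K6 sits at 0.348 to 5.10 CPM in the 9 libraries at 24 h and at 11.5 to 34.6 CPM in the 9 at 0 h, whereas DUSP10 sits at 5.98 to 13.6 CPM at 24 h and at 0.811 to 2.29 CPM at 0 h.

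The other kinase kinase dedicated to p38 rose where MAP2K6 fell. In Mock, MAP2K3 was at 53.4, 53.3 and 51.9 CPM at 0 h and 104, 96.4 and 91.8 CPM at 24 h. In siNT, MAP2K3 was at 81.8, 84.8 and 80.1 CPM and then 99.7, 103 and 96.7 CPM. In siELMO1, MAP2K3 was at 39.3, 36.4 and 32.8 CPM and then 74.5, 67.6 and 70.0 CPM. All libraries at 24 h were above those at 0 h in each transfection. The log2 fold change was 0.88 ± 0.061 (adjusted p = 8.7e-10) in Mock, 0.28 ± 0.06 (adjusted p = 0.00083) in siNT and 0.97 ± 0.062 (adjusted p = 4.3e-10) in siELMO1 by edgeR's quasi-likelihood test. The rise was smallest in siNT, which started from the highest level at 0 h.

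MAP2K4 (ENSG00000065559.15, chr17:12020829-12143830, plus strand), the kinase kinase shared with the JNK pathway, fell by a small amount in each transfection. In Mock, MAP2K4 was at 36.4, 34.8 and 35.1 CPM at 0 h and 29.1, 28.5 and 30.9 CPM at 24 h. In siNT, MAP2K4 was at 55.3, 56.9 and 59.1 CPM and then 46.6, 47.3 and 42.1 CPM. In siELMO1, MAP2K4 was at 36.6, 34.2 and 37.9 CPM and then 27.7, 28.6 and 27.9 CPM. No library at 24 h reached the lowest at 0 h of its transfection. By edgeR the log2 fold changes were −0.26 ± 0.056 (adjusted p = 0.00053), −0.33 ± 0.055 (adjusted p = 6.1e-05) and −0.37 ± 0.056 (adjusted p = 2.3e-05) in Mock, siNT and siELMO1.

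Levels of different genes are compared in TPM, which divides counts by transcript length and is computed from the transcript matrix and the annotated lengths. At 0 h MAP2K6 averaged 2.40, 5.65 and 2.50 TPM in Mock, siNT and siELMO1, and MAP2K3 57.7, 83.3 and 37.7 TPM. MAP2K6 thus made up 4.00 ± 0.182, 6.35 ± 0.546 and 6.26 ± 0.640% of the TPM of the pair (mean ± SD, n = 3). At 24 h its share was 0.183 ± 0.0912, 0.894 ± 0.0599 and 0.867 ± 0.643%. The summed TPM of the pair was not lower at 24 h, with means of 60.1, 88.9 and 40.2 at 0 h and 98.3, 102 and 73.2 at 24 h. Because MAP2K3 held nearly all of the pair already at 0 h, the sum followed MAP2K3. One siELMO1 library at 24 h, replicate 3, had a MAP2K6 share of 1.61%, and in it 86.3% of the MAP2K6 counts were on the long transcript. MAP2K3 counts were split between a coding transcript, MAP2K3-202, and MAP2K3-204, annotated as a target of nonsense-mediated decay, whose share ran from 0.552 to 55.9% in single libraries of the same group. That split is therefore not resolved by these estimates.

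**Figure D2:**
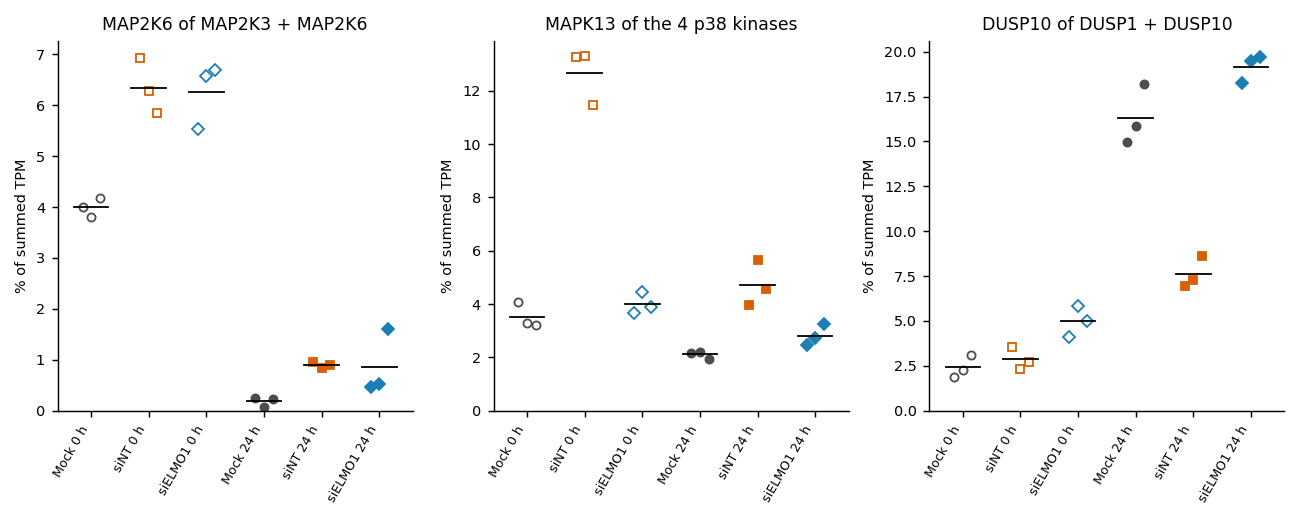
Share of 1 gene in the summed TPM of its functional group, in percent on a linear axis from 0, with a point for each library and a bar for the mean of 3. MAP2K6 is at 1.61% or less of the MAP2K3 and MAP2K6 pair in every library at 24 h, MAPK13 is highest in siNT at 0 h, and DUSP10 rises to between 6.93 and 19.7% of the DUSP1 and DUSP10 pair.

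Among the p38 kinases, MAPK11 (p38β, ENSG00000185386.15, chr22:50263713-50270767, minus strand) was higher after poly(I:C) in each transfection. In Mock, MAPK11 was at 23.4, 24.3 and 23.5 CPM at 0 h and 28.5, 28.3 and 30.3 CPM at 24 h. In siNT, MAPK11 was at 13.5, 12.0 and 12.5 CPM and then 22.1, 22.2 and 28.0 CPM. In siELMO1, MAPK11 was at 27.4, 22.5 and 23.1 CPM and then 33.2, 31.7 and 35.6 CPM. The groups did not overlap, and the siNT libraries at 0 h were the lowest of all. The log2 fold changes were 0.29 ± 0.089 (adjusted p = 0.0089), 0.93 ± 0.091 (adjusted p = 1.5e-07) and 0.46 ± 0.089 (adjusted p = 0.00028) in Mock, siNT and siELMO1. The Mock call was lost when scaling by plain library totals (0.17, adjusted p = 0.14) and without Mock 0 h replicate 1 or 3 (0.25, adjusted p = 0.055). The siELMO1 call was lost when both siELMO1 0 h libraries with the most mitochondrial counts were left out (0.29, adjusted p = 0.061).

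MAPK13 (p38δ, ENSG00000156711.17, chr6:36127809-36144524, plus strand) was the member that came closest to MAP2K6 in direction and size, and it did so in Mock and siNT. In Mock, MAPK13 was at 4.51, 3.14 and 4.57 CPM at 0 h and 2.15, 1.43 and 1.78 CPM at 24 h. In siNT, MAPK13 was at 10.8, 10.5 and 11.9 CPM and then 4.22, 5.63 and 4.74 CPM. In siELMO1, MAPK13 was at 4.71, 4.27 and 4.00 CPM and then 2.70, 3.58 and 4.10 CPM, where the ranges overlapped. The log2 fold changes were −1.19 ± 0.188 (adjusted p = 3e-05) in Mock and −1.18 ± 0.18 (adjusted p = 2.5e-05) in siNT, and the siELMO1 value, −0.33 ± 0.183 (adjusted p = 0.14), did not pass the test. Relative to the 4 p38 kinases, MAPK12 included, MAPK13 made up 3.53 ± 0.460, 12.7 ± 1.06 and 3.99 ± 0.416% of the summed TPM at 0 h in Mock, siNT and siELMO1, and 2.11 ± 0.140, 4.73 ± 0.870 and 2.81 ± 0.397% at 24 h.

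MAPK14 (p38α, ENSG00000112062.12, chr6:36027782-36111236, plus strand), the best known p38 kinase, overlaps ENSG00000237719 on the opposite strand and moved in opposite directions in Mock and siNT. In Mock, MAPK14 was at 50.3, 49.2 and 48.01 CPM at 0 h and 38.6, 37.7 and 37.4 CPM at 24 h. In siNT, MAPK14 was at 35.0, 37.1 and 36.8 CPM and then 43.5, 42.7 and 42.3 CPM. In siELMO1, MAPK14 was at 44.6, 36.8 and 38.4 CPM and then 41.1, 37.4 and 39.6 CPM. The Mock libraries fell without overlap, the siNT libraries rose without overlap, and those of siELMO1 overlapped. Accordingly the log2 fold changes were −0.38 ± 0.061 (adjusted p = 4e-05), 0.24 ± 0.061 (adjusted p = 0.0032) and −0.024 ± 0.061 (adjusted p = 0.77). Without both siELMO1 0 h libraries with the most mitochondrial counts the siELMO1 value was −0.19 (adjusted p = 0.022). At 24 h the means of the 3 transfections, 37.9, 42.8 and 39.3 CPM, lay closer together than at 0 h.

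MAPK14 counts were divided between transcripts of equal length that differ by 1 coding exon, exon 9 of each, which are shown because the matrix assigns reads to them. Capitals mark the 39 of 80 positions at which the exons differ when laid side by side (GRCh38, plus strand).
MAPK14-201, chr6:36095987-36096066: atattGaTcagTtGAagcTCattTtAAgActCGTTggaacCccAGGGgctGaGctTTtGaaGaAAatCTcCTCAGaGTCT
MAPK14-202, chr6:36100188-36100267: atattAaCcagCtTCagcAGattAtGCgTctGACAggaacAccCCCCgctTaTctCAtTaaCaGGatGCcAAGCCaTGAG
MAPK14-201 took 60.1% of the MAPK14 counts over all libraries. Its share was 58.0, 52.1 and 48.5% in Mock, 64.4, 71.8 and 58.4% in siNT and 60.9, 67.9 and 41.0% in siELMO1 at 0 h, and 64.4, 46.9 and 64.0%, 69.7, 60.9 and 56.3% and 78.6, 66.0 and 61.0% at 24 h. The ranges of 0 h and 24 h overlapped in each transfection, so no shift between the exons was resolved.

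MAPKAPK2 (MK2, ENSG00000162889.11, chr1:206684905-206734281, plus strand), the kinase that phosphorylates the small heat shock protein HSP27 and mRNA-binding proteins, was higher at 24 h in siNT and siELMO1. In Mock, MAPKAPK2 was at 63.9, 57.9 and 61.3 CPM at 0 h and 71.6, 69.0 and 63.1 CPM at 24 h, with overlap. In siNT, MAPKAPK2 was at 50.5, 52.8 and 52.7 CPM and then 69.3, 72.3 and 68.3 CPM. In siELMO1, MAPKAPK2 was at 39.9, 42.3 and 49.2 CPM and then 61.6, 61.8 and 59.0 CPM. The latter pairs of groups did not overlap. The log2 fold changes were 0.43 ± 0.067 (adjusted p = 3.5e-05) in siNT and 0.47 ± 0.068 (adjusted p = 1.2e-05) in siELMO1, and the Mock value was 0.15 ± 0.067 (adjusted p = 0.056). The Mock value passed the test under 5 of 28 alternatives, among them limma-voom (adjusted p = 0.045).

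MAPKAPK3 (MK3, ENSG00000114738.11, chr3:50611520-50649291, plus strand), its close relative, fell in Mock and rose in siNT. Its locus overlaps CISH on the opposite strand, and whether counting used strand is not given in the sources used here. In Mock, MAPKAPK3 was at 64.1, 69.0 and 66.3 CPM at 0 h and 46.4, 49.8 and 46.1 CPM at 24 h. In siNT, MAPKAPK3 was at 41.4, 44.8 and 41.2 CPM and then 54.3, 64.0 and 47.4 CPM. In siELMO1, MAPKAPK3 was at 36.4, 34.8 and 36.6 CPM and then 39.5, 37.9 and 33.4 CPM, with overlap. The log2 fold changes were −0.49 ± 0.084 (adjusted p = 8e-05), 0.38 ± 0.085 (adjusted p = 0.001) and 0.041 ± 0.086 (adjusted p = 0.71) in Mock, siNT and siELMO1. The siELMO1 value changed sign with the scaling, to −0.022 with library totals and −0.018 with upper-quartile factors.

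DUSP10 (MKP-5), a phosphatase that acts on p38 and JNK, had the largest rise of the 9 members tested. In Mock, DUSP10 was at 0.811, 0.920 and 1.39 CPM at 0 h and 11.5, 13.6 and 12.8 CPM at 24 h. In siNT, DUSP10 was at 2.02, 1.45 and 1.72 CPM and then 5.98, 6.29 and 6.23 CPM. In siELMO1, DUSP10 was at 1.74, 2.29 and 1.94 CPM and then 11.2, 11.5 and 10.9 CPM. Every library at 24 h was above every library at 0 h, and siNT had the lowest values at 24 h. By edgeR the log2 fold changes were 3.59 ± 0.176 (adjusted p = 7.3e-12), 1.83 ± 0.166 (adjusted p = 5.1e-08) and 2.50 ± 0.168 (adjusted p = 8.2e-10) in Mock, siNT and siELMO1. The transcript DUSP10-201 took 98.3% of DUSP10 counts.

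DUSP1 (MKP-1), an early phosphatase of p38 and JNK, was the more abundant of the pair and rose less. In Mock, DUSP1 was at 33.4, 34.7 and 33.9 CPM at 0 h and 52.3, 57.4 and 46.1 CPM at 24 h. In siNT, DUSP1 was at 44.3, 47.0 and 47.8 CPM and then 64.0, 65.9 and 54.0 CPM. In siELMO1, DUSP1 was at 31.5, 28.8 and 28.7 CPM and then 39.5, 37.8 and 35.1 CPM. The groups did not overlap in any of these comparisons. The log2 fold changes were 0.61 ± 0.081 (adjusted p = 3.7e-06), 0.40 ± 0.08 (adjusted p = 0.00038) and 0.34 ± 0.082 (adjusted p = 0.002), the last of which was 0.25 (adjusted p = 0.088) without both siELMO1 0 h libraries with the most mitochondrial counts. Per length, DUSP10 rose from 2.41 ± 0.628 to 16.3 ± 1.66% of the summed TPM of DUSP1 and DUSP10 in Mock, from 2.87 ± 0.613 to 7.60 ± 0.880% in siNT and from 4.97 ± 0.847 to 19.2 ± 0.772% in siELMO1.

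Among the 9 other members MAP2K4 alone passed the test as lower in all 3 transfections, and no member fell as far as MAP2K6 in any of them. In Mock 4 of the 9 rose and 4 fell, where 30.7% of all genes tested rose and 29.6% fell. With plain library totals for scaling the higher genes made up 37.9% of all calls in Mock rather than 50.9%, and the median over all genes moved by −0.12. In siNT 7 rose and 2 fell (28.6 and 25.2% of all genes), and in siELMO1 5 rose and 1 fell (28.0 and 26.9%). With library totals the higher genes made up 48.1 and 42.9% of all calls in siNT and siELMO1 rather than 53.1 and 51.1%. MAP2K3, MAPK11, DUSP1 and DUSP10 rose in each transfection, 4 of the 9 members, and MAP2K4 fell in each, where 14.4 and 11.6% of all genes did. Median log2 fold changes over the 9 members were 0.15, 0.38 and 0.34 in Mock, siNT and siELMO1, against 0.007, 0.014 and 0 over all genes. The members were chosen with results of these libraries known, so nothing particular to the module is read from these counts.

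**Figure D3:**
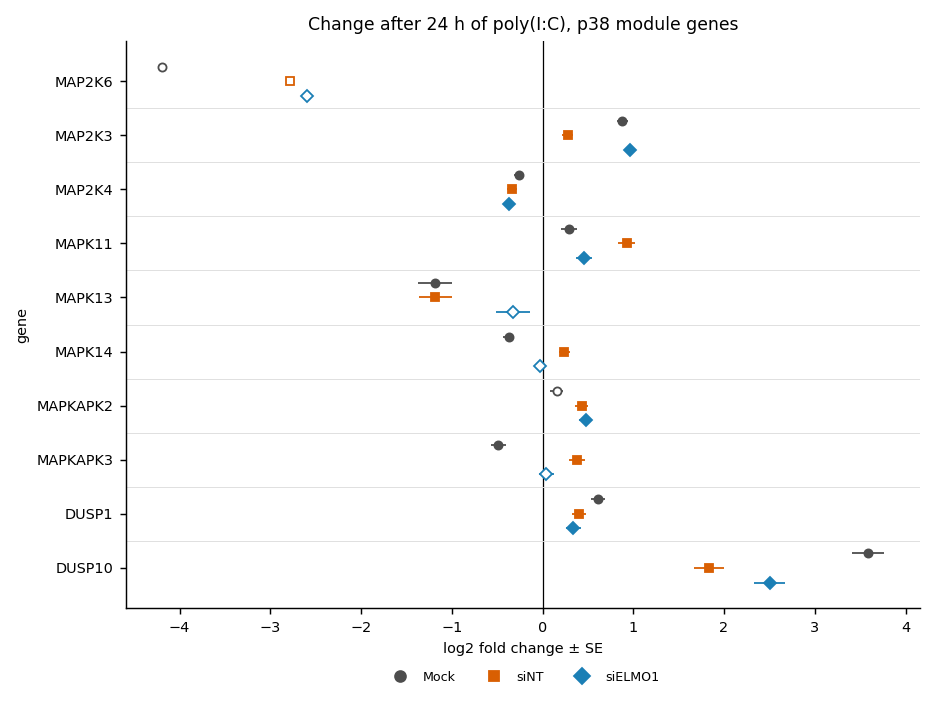
Log2 fold change from 0 h to 24 h of poly(I:C) for the 10 members in Mock, siNT and siELMO1, with bars of 1 SE. Filled symbols passed the test at an adjusted p under 0.05, open ones did not, and MAP2K6 is open and without a bar because it was not tested. MAP2K6 lies between −4.19 and −2.60, MAP2K3 between 0.28 and 0.97, and DUSP10 between 1.83 and 3.59.

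Beyond the members, 57 other genes of the p38 pathway and its JNK and ERK neighbours were listed by role, and 55 passed the filter (DUSP2 and GADD45G did not). Of these 24 rose and 20 fell in Mock (43.6 and 36.4%, where 30.7 and 29.6% of all genes did). In siNT 19 rose and 17 fell (34.5 and 30.9%, against 28.6 and 25.2%), and in siELMO1 16 rose and 23 fell (29.1 and 41.8%, against 28.0 and 26.9%). The median log2 fold changes were 0.071, −0.041 and −0.010. In all 3 transfections 10 of the 55 rose and 10 fell, where 14.4% of all genes rose and 11.6% fell in all 3. The counts by role, which follow, rest on 4 to 15 genes each and are to be read against those same shares of all genes, so nothing particular to a role is read from them. Upstream, 8 of 15 adaptors and MAP3 kinases rose and 6 fell in Mock, 8 and 3 in siNT, and 6 and 5 in siELMO1. TICAM1, which encodes TRIF, the adaptor of TLR3, rose from 19.7, 17.1 and 18.6 to 55.6, 61.1 and 61.6 CPM in Mock, a log2 fold change of 1.69 ± 0.068 (adjusted p = 4.9e-13). In siNT and siELMO1 the values for TICAM1 were 1.10 ± 0.067 (adjusted p = 3.2e-10) and 1.27 ± 0.068 (adjusted p = 3.8e-11). TAB3 and TAB2, binding partners of the kinase TAK1, rose by 1.39 and 0.78 in Mock, 0.92 and 0.27 in siNT and 0.89 and 0.27 in siELMO1 on the log2 scale. MAP3K3, a MAP3 kinase, fell by 0.54, 0.34 and 0.46.

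Among 7 other phosphatases and GADD45 proteins, 3 rose and 3 fell in Mock, 2 rose and 3 fell in siNT, and 2 rose and 2 fell in siELMO1. DUSP16, a phosphatase known for JNK and p38, rose from 13.0, 14.1 and 12.6 to 65.6, 68.7 and 66.4 CPM in Mock, a log2 fold change of 2.34 ± 0.071 (adjusted p = 8.4e-15). In siNT it rose from 10.2, 8.70 and 9.13 to 33.7, 33.1 and 38.2 CPM, and in siELMO1 from 20.8, 21.0 and 20.0 to 41.7, 39.4 and 43.5 CPM. The siELMO1 cells began from the highest level of DUSP16, and the fold changes were 1.90 ± 0.072 (adjusted p = 3.8e-13) in siNT and 1.01 ± 0.069 (adjusted p = 1e-09) in siELMO1. DUSP8, of the same phosphatase family, was at 0.591 CPM or less on average in each group at 0 h and rose by 2.02 in Mock and 1.89 in siNT on the log2 scale, while the siELMO1 value was 0.51 ± 0.331 (adjusted p = 0.21). PPM1A, a phosphatase of stress kinases, fell by 0.43 in Mock and by 0.48 in siELMO1, and was −0.063 in siNT (adjusted p = 0.40). PPM1B, its relative, was 0.39 in Mock and −0.30 in siNT, both past the test, and −0.010 in siELMO1 (adjusted p = 0.90).

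Of 6 other p38 and downstream kinases, 1 rose and 2 fell in Mock, none rose and 2 fell in siNT, and 1 rose and 3 fell in siELMO1. MAPK12, the remaining p38 kinase, passed the test in none of the 3 responses. MKNK2, a kinase of the translation factor eIF4E, fell by 0.58, 0.34 and 0.24 in Mock, siNT and siELMO1. Its relative MKNK1 rose by 0.40 in Mock and 0.34 in siELMO1 and was 0.045 in siNT (adjusted p = 0.58). RPS6KA5, which encodes the chromatin kinase MSK1, fell by 0.41 in siNT and 0.65 in siELMO1 and was −0.024 in Mock (adjusted p = 0.83). RPS6KA4, which encodes MSK2, fell by 0.54 in Mock and 0.17 in siELMO1 and was 0.11 in siNT (adjusted p = 0.089).

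Transcription factors and other substrates numbered 13, of which 6 rose and 4 fell in Mock, 5 and 5 in siNT, and 4 and 7 in siELMO1. DDIT3, which encodes the stress factor CHOP, averaged 13.0 CPM at 0 h and 62.8 CPM at 24 h in Mock and rose by 2.27, 0.79 and 0.71 on the log2 scale in Mock, siNT and siELMO1. ZFP36, whose product tristetraprolin destabilises cytokine transcripts, rose by 1.70, 0.56 and 0.93. MEF2C, a transcription factor phosphorylated by p38, rose by 1.29, 0.89 and 0.45. EEF2K, the kinase of elongation factor 2, fell by 0.61, 0.36 and 0.52.

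In the neighbouring JNK module of 4 kinases, 1 rose and 1 fell in Mock, 1 rose and 2 fell in siNT, and none rose and 1 fell in siELMO1. MAPK9, which encodes JNK2, fell by 0.58, 0.70 and 0.23 in Mock, siNT and siELMO1. MAPK8, which encodes JNK1, fell by 0.46 in siNT, with −0.075 (adjusted p = 0.34) in Mock and −0.16 (adjusted p = 0.052) in siELMO1. MAP2K7, a kinase kinase of JNK, rose by 0.12 in Mock and 0.34 in siNT and was 0.082 in siELMO1 (adjusted p = 0.16). The 10 genes of the ERK module split 5 up and 4 down in Mock, 3 and 2 in siNT, and 3 and 5 in siELMO1. DUSP4, a nuclear phosphatase, fell from 163 to 52.5 CPM in Mock, and by 1.64, 1.03 and 0.84 on the log2 scale in Mock, siNT and siELMO1. DUSP5, a nuclear phosphatase of ERK, rose by 1.11, 0.64 and 1.53, and MAP2K1, which encodes the ERK kinase kinase MEK1, by 0.35, 0.47 and 0.63. DUSP7, a cytoplasmic phosphatase of ERK, fell by 0.53 in Mock and 0.46 in siELMO1 and was −0.11 in siNT (adjusted p = 0.36).

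**Figure D4:**
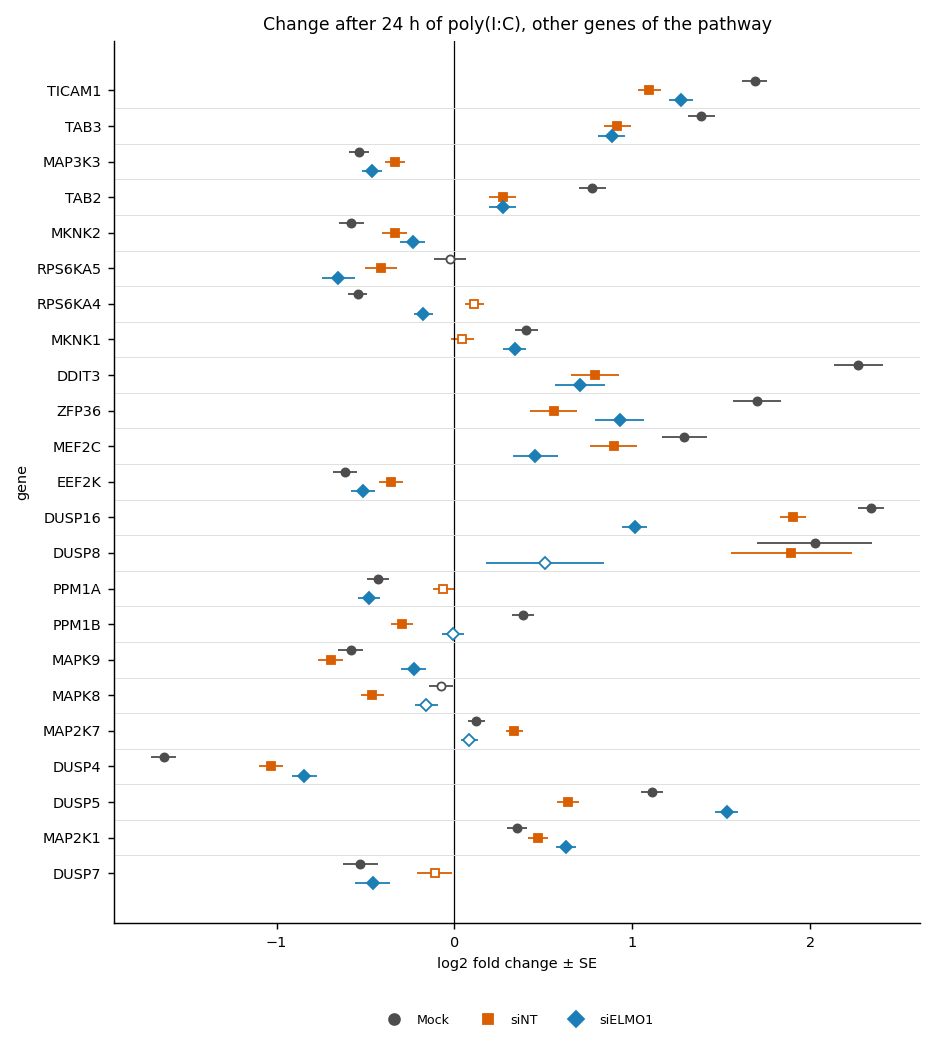
Log2 fold change from 0 h to 24 h of poly(I:C), with bars of 1 SE, for the 23 other pathway genes named by size of change within each role. Filled symbols passed the test at an adjusted p under 0.05. DUSP16 lies between 1.01 and 2.34, DDIT3 between 0.71 and 2.27, and DUSP4 between −1.64 and −0.84.

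The module also differed between transfections before poly(I:C). The 9 members other than MAP2K6 all passed the test between siNT and Mock at 0 h. Of these, 4 were lower in siNT and the rest higher. Of all genes tested, 27.6 and 24.0% were higher and lower, and with library totals 44.8% of all calls were higher rather than 53.5%. The members were chosen with results of these libraries known, so nothing particular to the module is read from the count of members. MAP2K6 is left out of the counts between transfections that follow, unless it is named as counted. The kinase kinases were higher, MAP2K6 by 1.39 ± 0.174, MAP2K3 by 0.64 ± 0.061 (adjusted p = 1.2e-07) and MAP2K4 by 0.69 ± 0.055 (adjusted p = 1.4e-08) on the log2 scale. MAPK13 (1.44 ± 0.18, adjusted p = 3.2e-06) and both phosphatases, DUSP1 (0.45 ± 0.08, adjusted p = 0.00015) and DUSP10 (0.73 ± 0.174, adjusted p = 0.002), were higher as well. Lower in siNT were MAPK11 (−0.91 ± 0.091, adjusted p = 2.3e-07) and MAPK14 (−0.44 ± 0.061, adjusted p = 1.1e-05) and the downstream kinases MAPKAPK2 (−0.23 ± 0.067, adjusted p = 0.0079) and MAPKAPK3 (−0.65 ± 0.084, adjusted p = 5.2e-06). Among these 10 genes the kinase kinases, DUSP1 and DUSP10 were higher in siNT, and the kinases that follow them, other than MAPK13, were lower. Of 7 other phosphatases and GADD45 proteins, 4 were higher and 3 lower. Of 6 other p38 and downstream kinases, 1 was higher and 2 were lower. No order by role is therefore read from the members.

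Against Mock at 0 h, siELMO1 had 1 member higher and 4 lower (27.9 and 22.4% of all genes, and with library totals 43.9% of all calls were higher rather than 55.5%). DUSP10 was higher (0.92 ± 0.176, adjusted p = 0.00029). MAP2K3 (−0.55 ± 0.062, adjusted p = 8.8e-07), MAPK14 (−0.30 ± 0.061, adjusted p = 0.00053), MAPKAPK2 (−0.48 ± 0.068, adjusted p = 1.2e-05) and MAPKAPK3 (−0.89 ± 0.085, adjusted p = 1.2e-07) were lower. DUSP1 was below Mock in every library without passing the test (−0.19 ± 0.081, adjusted p = 0.056), and it did pass with other tools and scalings, among them DESeq2 (−0.21, adjusted p = 0.032) and library totals (−0.27, adjusted p = 0.011). MAP2K4, MAPK11 and MAPK13 were at 0.034 ± 0.055 (adjusted p = 0.65), 0.038 ± 0.089 (adjusted p = 0.76) and 0.089 ± 0.181 (adjusted p = 0.72). The sign changed with the processing for MAP2K4 and MAPK11, and for MAPK13 only without Mock 0 h replicate 2.

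Comparing siELMO1 with siNT at 0 h, with MAP2K6 left out, 1 member was higher (31.3% of all genes). Every other member except MAPK14 and DUSP10 was lower (31.3% of all genes). MAPK11 was higher (0.94 ± 0.091, adjusted p = 7e-08). MAP2K6 (−1.28 ± 0.174), MAPK13 (−1.35 ± 0.181, adjusted p = 3.9e-06), MAP2K3 (−1.18 ± 0.062, adjusted p = 1.9e-11), MAP2K4 (−0.66 ± 0.055, adjusted p = 1.1e-08) and DUSP1 (−0.64 ± 0.081, adjusted p = 2e-06) were lower. Smaller differences were those of MAPKAPK2 (−0.25 ± 0.068, adjusted p = 0.004) and MAPKAPK3 (−0.24 ± 0.085, adjusted p = 0.021). The MAPKAPK3 call was lost without siNT 0 h replicate 2 or siELMO1 0 h replicate 2, and without both libraries with the most mitochondrial counts (−0.21, adjusted p = 0.15). MAPK14 was at 0.14 ± 0.061 (adjusted p = 0.057), but without both of those libraries it was at 0.30 (adjusted p = 0.00059), and it also passed the test with limma-voom, with upper-quartile factors and without siELMO1 0 h replicate 2 or 3. DUSP10 was at 0.19 ± 0.171 (adjusted p = 0.35). The siNT libraries enter both this comparison and that of siNT with Mock.

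After 24 h of poly(I:C) MAP2K6 remained higher in siNT than in Mock, and the difference was 2.80 ± 0.228 on the log2 scale. The paper reports that siNT cells died in large numbers by this time, Mock cells much less. It describes apoptosis as inhibited in siELMO1. What part cell death had in the differences at 24 h was not tested. Between siNT and Mock at 24 h, with MAP2K6 left out, every member except MAP2K3 and MAPKAPK2 passed the test. Of these, 2 were lower in siNT and the rest higher (24.9 and 25.2% of all genes). MAPK13 (1.45 ± 0.189, adjusted p = 6.3e-06) and MAP2K4 (0.62 ± 0.056, adjusted p = 9e-08) were higher and DUSP10 (−1.03 ± 0.156, adjusted p = 3e-05) lower in siNT, in each case without overlap. The remaining calls, MAPK14 (0.18 ± 0.061, adjusted p = 0.023), MAPKAPK3 (0.22 ± 0.085, adjusted p = 0.039), DUSP1 (0.24 ± 0.08, adjusted p = 0.019) and MAPK11 (−0.27 ± 0.089, adjusted p = 0.018), were small, and each was lost without at least 3 of the single libraries left out in turn. Counted with MAP2K6, the number of members called dropped from 8 to 4 without Mock 24 h replicate 3 or siNT 24 h replicate 1 or 2. It dropped to 5 without Mock 24 h replicate 1 or without the filter on low counts. MAP2K3, at 0.036 ± 0.06 (adjusted p = 0.65), and MAPKAPK2, at 0.044 ± 0.067 (adjusted p = 0.62), overlapped between siNT and Mock.

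With MAP2K6 left out, siELMO1 cells at 24 h had MAPK13 higher than Mock and 3 members lower (21.6 and 22.0% of all genes). MAPK13 was at 0.95 ± 0.189 (adjusted p = 0.00053), and MAP2K6, given without a test, at 1.70 ± 0.238. MAP2K3 (−0.46 ± 0.06, adjusted p = 7.8e-06), MAPKAPK3 (−0.36 ± 0.085, adjusted p = 0.0022) and DUSP1 (−0.47 ± 0.081, adjusted p = 0.00013) were lower. The other 5 members did not pass the test, with MAPK11 at 0.21 ± 0.088 (adjusted p = 0.07), MAPKAPK2 at −0.16 ± 0.067 (adjusted p = 0.065) and DUSP10 at −0.17 ± 0.153 (adjusted p = 0.39). MAPK11 passed it under 3 of 28 alternatives and MAPKAPK2 under 5. MAP2K4 (−0.071 ± 0.056, adjusted p = 0.33) and MAPK14 (0.054 ± 0.061, adjusted p = 0.51) overlapped between the groups.

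Set against siNT at 24 h, with MAP2K6 left out, siELMO1 had 2 members higher (26.0% of all genes). Every other member except MAPK14 was lower (26.5% of all genes, and with library totals 42.9% of all calls were higher rather than 49.5%). The higher ones were DUSP10 (0.86 ± 0.156, adjusted p = 0.00017) and MAPK11 (0.48 ± 0.089, adjusted p = 0.00024). MAP2K6 (−1.10 ± 0.196), MAP2K4 (−0.69 ± 0.056, adjusted p = 1.9e-08) and MAP2K3 (−0.50 ± 0.06, adjusted p = 2.6e-06) were lower, as were MAPKAPK3 (−0.58 ± 0.085, adjusted p = 2e-05) and DUSP1 (−0.71 ± 0.081, adjusted p = 1.2e-06). MAPK13 (−0.50 ± 0.182, adjusted p = 0.03) and MAPKAPK2 (−0.20 ± 0.067, adjusted p = 0.017) were lower too, but the first call was lost without siNT 24 h replicate 2 or siELMO1 24 h replicate 1 or 2, and the second without siNT 24 h replicate 2 or siELMO1 24 h replicate 3. The MAPK13 call was also lost with no filter on low counts (adjusted p = 0.077) and with only the groups compared (adjusted p = 0.057). MAPK14 was at −0.12 ± 0.061 (adjusted p = 0.1).

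**Figure D5:**
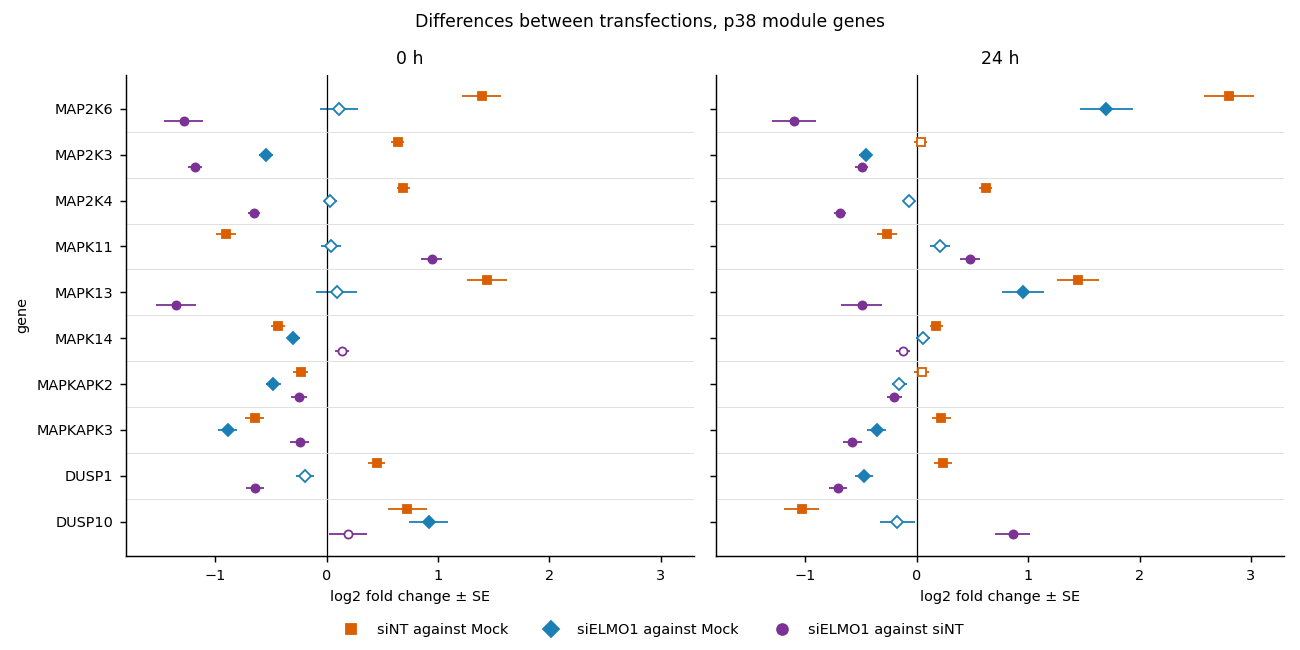
Log2 fold change between transfections at 0 h and at 24 h for the 10 members, with bars of 1 SE. Filled symbols passed the test at an adjusted p under 0.05. MAP2K6 is 1.39 higher in siNT than in Mock at 0 h and 2.80 higher at 24 h, and siELMO1 is 1.28 and 1.10 below siNT. The fill of the MAP2K6 symbols is not to be read as a test, because its counts chose the set.

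Whether a member responded differently to poly(I:C) after different transfections was tested as an interaction. Between siNT and Mock the response was more positive for 4 of the 9 members and more negative for 2 (15.0 and 16.0% of all genes, and with library totals 64.8% of all calls were more positive rather than 48.3%). Between siELMO1 and Mock it was more positive for 4 and more negative for 1 (13.8 and 14.6%, and 60.4 rather than 48.6% of all calls with library totals). Between siELMO1 and siNT 3 were more positive and 3 more negative (16.7 and 17.8%). The last count was 3 without siNT 0 h replicate 1, without siELMO1 0 h replicate 1 or without the filter on low counts. The largest of these differences was that of DUSP10, whose rise was smaller in siNT than in Mock by 1.76 on the log2 scale, a difference of −1.76 ± 0.234 (adjusted p = 2e-05). MAP2K3 rose less in siNT than in Mock (−0.60 ± 0.085, adjusted p = 3.8e-05) and more in siELMO1 than in siNT (0.69 ± 0.086, adjusted p = 7.3e-06). For MAP2K4, which fell in each transfection, the differences were −0.069 ± 0.078 (adjusted p = 0.55), −0.11 ± 0.079 (adjusted p = 0.35) and −0.036 ± 0.078 (adjusted p = 0.77), and none passed the test. The fall of MAP2K6 was 1.41 smaller in siNT and 1.59 smaller in siELMO1 than in Mock, and 0.18 smaller in siELMO1 than in siNT, values that are given without a test.

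The genes whose log2(CPM + 0.5) followed that of MAP2K6 most closely over the 18 libraries, among 11671 coding genes of at least 1 CPM on average, were AGPAT5 (Pearson r = 0.986), an acyltransferase of phospholipid synthesis, MMGT1 (0.985), a membrane protein of the endoplasmic reticulum, TACC1 (0.982), a coiled-coil protein of the cytoskeleton, GET1 (0.981), which takes part in membrane insertion of proteins, and HAPSTR1 (0.981), a stress response regulator. The libraries share 6 groups, so these values describe the pattern over groups. AGPAT5 averaged 198, 280 and 170.0 CPM at 0 h and 56.8, 114 and 85.5 CPM at 24 h in Mock, siNT and siELMO1. None of the 5 is a member of the module.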

How the data were processed

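RNA-seq libraries of EA.hy926 cells in 6 groups of 3 were analysed. The authors aligned reads with STAR to GRCh38 and deposited estimated counts per gene and per transcript, made with StringTie and its count script from the GENCODE v44 annotation, with tool versions not given in the sources used here. Such counts are computed from transcript coverage, so long transcripts and overlapping or antisense genes are less certain, and whether counting used strand is likewise not given. The total of every library exceeds the largest number of read pairs that the authors report for a sample. An estimated count is therefore not a count of read pairs. Genes were kept if their counts summed to 100 or more over the libraries and reached 1 CPM in any of them. TMM factors and the quasi-likelihood test of edgeR 4.0.16 (R 4.3.3) were applied to all 18 libraries in 1 fit, on rounded counts, two-sided, with Benjamini-Hochberg adjustment over 15167 genes and calls at an adjusted p under 0.05. Values after ± are SE for log2 fold changes and SD elsewhere. The biological coefficient of variation was 12.2%, and 3 counts, taken as the floor, equalled 0.0384 to 0.0754 CPM. DESeq2 1.42.0, limma-voom (limma 3.58.1), other scalings, filters, sample choices, a replicate block and leaving out each library were the alternatives, and the script was checked on simulated data.

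CPM values use TMM-scaled totals. TPM was computed from the transcript matrix and annotated lengths. No pair of libraries was identical, and 0 columns lacked a sample. The members and lists were chosen with earlier results of these data known. Named were all 10 members, ELMO1 and 3 stimulation checks, up to 4 genes per pathway role with the largest mean absolute change over the 3 poly(I:C) responses among those called in at least 1, and the 5 coding genes most like MAP2K6 in log2(CPM + 0.5). Promoter windows and start sites are from RefSeq.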

Additional observations from a re-analysis of the deposited data

Results flagged for a closer look

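Members that responded to poly(I:C) differently after different transfections, by the interaction test of edgeR, are given here with the difference on the log2 scale and its adjusted p. A difference is the response in the first transfection named minus that in the second. The comparisons share libraries, so a single group can enter several of these values.

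Set against Mock, the response in siNT was more positive for MAPK14 (0.61, adjusted p = 3.5e-05), MAPK11 (0.64, adjusted p = 0.00094), MAPKAPK3 (0.87, adjusted p = 2.8e-05) and MAPKAPK2 (0.28, adjusted p = 0.035). It was more negative for MAP2K3 (−0.60, adjusted p = 3.8e-05) and DUSP10 (−1.76, adjusted p = 2e-05). MAPK14 and MAPKAPK3 fell in Mock and rose in siNT. The MAPKAPK2 call was lost in 8 of 28 alternatives, when any of 7 single libraries was left out and with no filter on low counts (0.29, adjusted p = 0.058).

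Set against Mock, the response in siELMO1 was more positive for MAPK13 (0.86, adjusted p = 0.02), MAPK14 (0.35, adjusted p = 0.0054), MAPKAPK2 (0.32, adjusted p = 0.018) and MAPKAPK3 (0.53, adjusted p = 0.0032), and more negative for DUSP10 (−1.09, adjusted p = 0.002). The MAPK13 call was lost without Mock 24 h replicate 2 (0.72, adjusted p = 0.057), without siELMO1 24 h replicate 3 (0.73, adjusted p = 0.053) and without both siELMO1 0 h libraries with the most mitochondrial counts (0.78, adjusted p = 0.12). The MAPKAPK2 call was lost without Mock 24 h replicate 3 (0.27, adjusted p = 0.051).

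Set against siNT, the response in siELMO1 was more positive for MAP2K3 (0.69, adjusted p = 7.3e-06), MAPK13 (0.86, adjusted p = 0.015) and DUSP10 (0.67, adjusted p = 0.032). It was more negative for MAPK11 (−0.47, adjusted p = 0.0084), MAPK14 (−0.26, adjusted p = 0.026) and MAPKAPK3 (−0.34, adjusted p = 0.036). The DUSP10 call was lost in 8 of 28 alternatives, without any of 7 single libraries (down to 0.54, adjusted p = 0.097, without siNT 0 h replicate 1) and with no filter on low counts (adjusted p = 0.058). The MAPK14 call was lost in 6, among them without siELMO1 0 h replicate 1 (−0.17, adjusted p = 0.052), with only the groups compared (adjusted p = 0.071) and with no filter (−0.23, adjusted p = 0.16). The MAPKAPK3 call was lost in 10, without any of 6 single libraries, with no filter (adjusted p = 0.13), with filterByExpr (adjusted p = 0.051), with only the groups compared (adjusted p = 0.069) and without both of those siELMO1 libraries (adjusted p = 0.098). Without the latter MAPK13 was at 0.76 (adjusted p = 0.11). MAP2K3 and MAPK11 kept their calls in all 28. What set these differences was not tested.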

How the results depend on the processing

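Of 2052 refits of a gene in a comparison without 1 library, 1962 kept direction and side of the threshold, 55 lost the call, 18 gained it and 17 changed sign, and of 1140 under the other alternatives 1095, 22, 15 and 8 did. Members called between siNT and Mock at 24 h, counted with MAP2K6, went from 8 to 5 with no filter on low counts. They ran from 4 to 8 with libraries left out. For the difference of responses between siELMO1 and siNT the count went from 6 to 3 with no filter and ran from 3 to 6. The MAP2K6 change in Mock ran from −4.50 to −3.87 with libraries left out. Changes of sign were all in values that had not passed the test. With library totals they were MAPKAPK3 in siELMO1 (−0.022), MAP2K4 (−0.047) and MAPK11 (−0.040) in siELMO1 against Mock at 0 h, and MAP2K4 in the difference between siNT and Mock (0.014). With upper-quartile factors MAPKAPK3 in siELMO1 was −0.018, with no filter MAP2K4 in siELMO1 against Mock at 0 h was −0.005, and with only the groups compared MAP2K4 and MAPK11 there were −0.008 and −0.004. With libraries left out, the values that crossed 0 were MAPK14 (−0.078 to 0.065) and MAPKAPK3 (−0.010 to 0.107) in siELMO1, MAP2K4 (−0.011 to 0.072), MAPK11 (−0.059 to 0.090) and MAPK13 (−0.10 to 0.15) in siELMO1 against Mock at 0 h, MAP2K3 (−0.004 to 0.071) and MAPKAPK2 (−0.006 to 0.072) in siNT against Mock at 24 h, MAPK13 in the difference between siNT and Mock (−0.132 to 0.191) and MAPKAPK2 in that between siELMO1 and siNT (−0.020 to 0.138). The cause was not tested. The replicate numbers were not taken as pairs, since over all genes tested no pair of groups had all 3 correlations of same-numbered libraries above 0.1 (0.069, 0.119 and 0.128 for Mock and siNT at 24 h). Over the 9644 genes with a mean of at least 10 CPM that pair alone had all 3 above it (0.215, 0.277 and 0.326). With the replicate block the calls, counted with MAP2K6, stayed at 8 for siNT against Mock at 24 h. DUSP1 alone changed, and it gained a call at 0 h between siELMO1 and Mock (−0.195, adjusted p = 0.033). Leaving out both siELMO1 0 h libraries with the most mitochondrial counts was chosen after seeing the data. MAP2K6 at 24 h rests on 21 to 48 estimated counts in the Mock libraries, and on fewer read pairs than that would imply, which limits the precision of its fold change there.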
